A study of Homo sapiens with 28 samples.

Results

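MicroRNA host genes are long non-coding RNA genes whose transcripts carry microRNA hairpins and which are named for them. They were taken as the genes that GENCODE release 44 classes as lncRNA on hg38 and whose symbols begin with MIR and end with HG, which gave 83 of 62663 genes. A peak belonged to a host gene when its summit lay on the strand of the gene, from 1000 bases upstream of the gene start to the gene end. By this rule 34 of the 83 host genes held at least 1 peak, with 1848 of 496678 peaks between them. The rule uses symbols and positions and no measured value, though it was set with earlier results of these data known.

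The peaks come from m6A MeRIP-seq of chromatin-associated RNA (caRNA): fragmented RNA from the chromatin pellet is pulled down with an antibody against N6-methyladenosine (m6A), and regions with more pulled-down reads than a background level are called as peaks. The 14 immunoprecipitated (IP) libraries came from 3 human cell lines in 6 groups, and the 14 input libraries are not analysed here. HepG2 WT (n = 2) is an unmodified hepatocellular carcinoma line and K562 WT (n = 2) an unmodified chronic myeloid leukaemia line with erythroid features. K562 Control (n = 2) and NB4 Control (n = 3) carried a lentiviral non-targeting shRNA, K562 RBFOX2 KD (n = 2) and NB4 RBFOX2 KD (n = 3) an shRNA against the RNA-binding protein RBFOX2, all 4 groups being selected with puromycin. NB4 is an acute promyelocytic leukaemia line. Every group is 1 cell line, and nothing in the labels says that replicates came from separate transductions, so the p-values below measure the spread between these libraries, which may be technical.

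A host transcript is the primary form of its microRNA. In the nucleus, largely while the transcript is still on chromatin, Drosha and its partner DGCR8 cut out the hairpin, exportin 5 carries it to the cytoplasm, Dicer trims it, and an Argonaute protein uses the mature strand to pair with target mRNAs through the seed, bases 2 to 8 from the 5′ end. METTL3 can mark primary microRNAs with m6A, and HNRNPA2B1 and DGCR8 have been linked to the processing of marked transcripts. A host gene can also act as a long non-coding RNA in its own right. A peak needs a transcript and is read here as methylation, which peak lists without input levels do not establish. A host gene without a peak may be silent, unmethylated or under the depth of the list, and these cannot be told apart here.

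The mature microRNAs show what these transcripts make. They are printed for the hosts on which the results turn, 5′ to 3′ from RefSeq (GRCh38.p14), with the seed in capitals. Of 64 hairpins looked up, those of the 34 hosts with a peak and of MIR122HG and MIR155HG, 63 had an entry. A single seed was shared between hosts: let-7a and let-7b of MIRLET7BHG, let-7i of MIRLET7IHG and miR-4458 of MIR4458HG all begin with the let-7 seed.
let-7a-5p: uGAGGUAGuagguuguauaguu
let-7b-5p: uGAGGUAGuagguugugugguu
let-7i-5p: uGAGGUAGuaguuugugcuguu
miR-4458: aGAGGUAGguguggaagaa

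Within single hosts, seeds were shared by miR-17 and miR-20a and by miR-19a and miR-19b of MIR17HG, by miR-181a and miR-181b of MIR181A1HG, by miR-29b and miR-29c of MIR29B2CHG, and by miR-221 and miR-222 of MIR222HG.
miR-17-5p: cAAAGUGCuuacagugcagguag
miR-20a-5p: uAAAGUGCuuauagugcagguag
miR-19a-3p: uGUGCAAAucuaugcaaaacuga
miR-19b-3p: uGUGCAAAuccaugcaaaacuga
miR-181a-5p: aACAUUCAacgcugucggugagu
miR-181b-5p: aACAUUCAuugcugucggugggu
miR-29b-3p: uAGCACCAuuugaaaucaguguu
miR-29c-3p: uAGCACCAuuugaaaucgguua
miR-221-3p: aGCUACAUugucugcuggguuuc
miR-222-3p: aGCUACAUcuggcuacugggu

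The next set belongs to hosts whose peaks lay close to the hairpin or followed a cell line. miR-142 and miR-223 are blood-cell microRNAs, miR-34a is induced by p53, miR-210 by hypoxia and miR-146a by NF-kB, and miR-194 is abundant in liver and intestine.
miR-142-5p: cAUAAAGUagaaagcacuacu
miR-142-3p: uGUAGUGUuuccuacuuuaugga
miR-223-3p: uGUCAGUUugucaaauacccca
miR-22-3p: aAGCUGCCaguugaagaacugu
miR-34a-5p: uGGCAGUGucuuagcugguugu
miR-210-3p: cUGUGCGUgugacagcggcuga
miR-146a-5p: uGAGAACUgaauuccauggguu
miR-194-5p: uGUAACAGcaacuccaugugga
miR-4453: gAGCUUGGucuguagcgguu

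The sequence under the peaks is shown for 10 picked sites, some near a hairpin, some at a transcript start and the strongest of the let-7 hosts and MIR22HG. Not every site of these kinds is printed. Each run is the 81 bases of hg38 centred on the strongest summit, read 5′ to 3′ on the strand of the host. Capitals mark every DRACH match, the m6A consensus of any base but C, a purine, AC, and any base but G.
MIR4453HG, chr4:152536483-152536563, plus strand: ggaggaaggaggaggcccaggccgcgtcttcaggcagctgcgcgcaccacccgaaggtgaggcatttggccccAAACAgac
MIR223HG, chrX:66019047-66019127, plus strand: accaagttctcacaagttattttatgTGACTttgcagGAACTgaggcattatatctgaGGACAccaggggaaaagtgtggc
MIR142HG, chr17:58331593-58331673, minus strand: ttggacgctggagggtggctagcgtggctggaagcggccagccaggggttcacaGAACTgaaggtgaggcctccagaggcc
MIR22HG, chr17:1712579-1712659, minus strand: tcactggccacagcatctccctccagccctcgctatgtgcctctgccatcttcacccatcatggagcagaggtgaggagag
MIR34AHG, chr1:9150839-9150919, minus strand: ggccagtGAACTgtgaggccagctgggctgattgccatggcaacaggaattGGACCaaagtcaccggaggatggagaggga
MIRLET7IHG, chr12:62614026-62614106, plus strand: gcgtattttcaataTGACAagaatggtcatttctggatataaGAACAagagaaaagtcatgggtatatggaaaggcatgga
MIRLET7BHG, chr22:46087352-46087432, plus strand: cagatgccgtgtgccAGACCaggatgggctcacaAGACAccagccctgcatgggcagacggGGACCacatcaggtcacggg
MIR17HG, chr13:91347842-91347922, plus strand: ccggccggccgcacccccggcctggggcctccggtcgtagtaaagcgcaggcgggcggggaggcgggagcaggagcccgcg
MIR181A1HG, chr1:198937310-198937390, minus strand: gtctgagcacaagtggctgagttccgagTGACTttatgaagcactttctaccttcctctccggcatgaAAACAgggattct
MIR3142HG, chr5:160468250-160468330, plus strand: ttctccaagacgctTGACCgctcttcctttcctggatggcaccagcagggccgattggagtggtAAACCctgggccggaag

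The windows of MIR22HG and MIR17HG hold no DRACH match within 40 bases of the summit, and those of MIR223HG and MIRLET7BHG hold 3 each, the most of the 10. Windows of MIR210HG and MIR130AHG, which are not printed, hold no match either. The summit of the GC-rich MIR17HG window lies in exon 1 of 5. The 31 bases at the centre of each of the 10 windows occur 1 time in hg38.

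Lists held 22700 to 44088 peaks on chromosomes 1 to 22, X and Y, called at 10.8 to 32.9 M effective reads, a depth recovered from the fold and the p-value of each summit. Pileups came out whole in 11 libraries, and not in NB4 Control 3 or either HepG2 library, where the value is thus a scaled depth. Depth differed between the groups: 31.1 ± 2.61 M in HepG2 WT and 25.2 ± 0.490 M in K562 WT (SD, n = 2 each) against 14.03 ± 3.21 M in NB4 Control and 19.1 ± 2.56 M in NB4 RBFOX2 KD (n = 3 each). Each set of marker genes was listed most in its own line. Peaks were found in 3 to 6 of 8 hepatocyte markers in HepG2 and in 0 in the other lines. Of 8 erythroid markers, 7 or 8 held peaks in K562, 1 or 2 in HepG2 and 2 or 3 in NB4. Of 8 promyelocyte markers, 6 or 7 held peaks in NB4, 1 in HepG2, 3 in K562 WT and 1 in the other K562 groups. The defining ALB and AFP in HepG2 and ELANE in NB4 held none. Peaks in RBFOX2 itself were listed in all 5 KD libraries, and a peak list does not measure the knockdown.

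Of the 83 host genes, 41.0% held a peak in at least 1 library, beside 42.9% of the 28 small nucleolar RNA host genes (SNHG), 20.1% of all 18866 lncRNA genes and 29.3% of all genes. The number of host genes with a peak was 14.5 ± 0.707 in HepG2 WT, 22 ± 0 in K562 WT, 15.5 ± 0.707 in K562 Control and 15.5 ± 0.707 in K562 RBFOX2 KD (SD, n = 2 each), 16.7 ± 0.577 in NB4 Control and 18.3 ± 2.52 in NB4 RBFOX2 KD (n = 3 each). Both K562 WT libraries stood above all others, of which NB4 RBFOX2 KD 1 came nearest with 21. The K562 WT libraries also had the most genes of any kind with a peak, 13365 and 13282. The HepG2 WT libraries had the fewest, 9299 and 10172. The share of all peaks that lay in host genes was 0.176% ± 0.00659 in HepG2 WT and 0.452% ± 0.00866 in NB4 RBFOX2 KD, the lowest and the highest group.

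**Figure D1:**
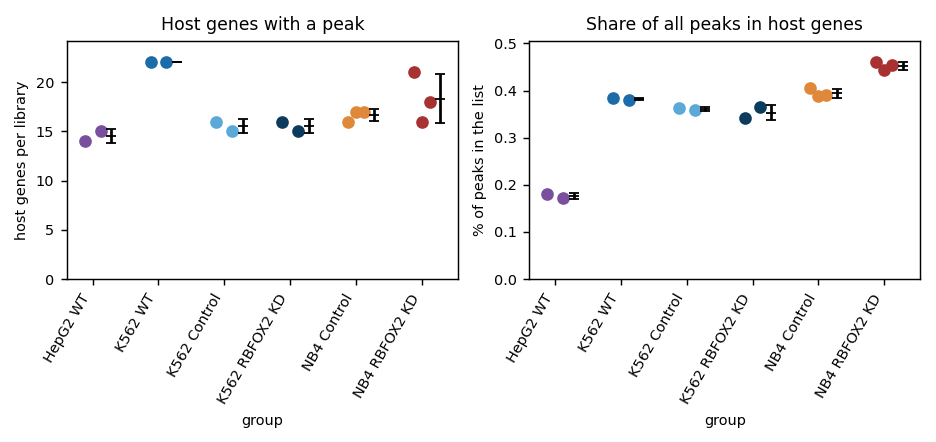
Number of host genes with a peak (left) and percent of all listed peaks that lie in host genes (right) in each IP library, by group; coloured points are libraries, and the black bar and whiskers beside them are the group mean and SD. HepG2 WT has the lowest share of peaks in host genes and K562 WT the most host genes, 22 in each library.

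The other 49 host genes held no summit in any library: MIR1-1HG, MIR100HG, MIR122HG, MIR124-1HG, MIR124-2HG, MIR1302-2HG, MIR1302-9HG, MIR133A1HG, MIR137HG, MIR155HG, MIR181A2HG, MIR193BHG, MIR200CHG, MIR202HG, MIR2052HG, MIR205HG, MIR2117HG, MIR217HG, MIR219A2HG, MIR302CHG, MIR3147HG, MIR3150BHG, MIR325HG, MIR34BHG, MIR3659HG, MIR365BHG, MIR3663HG, MIR378D2HG, MIR3976HG, MIR4280HG, MIR4290HG, MIR4300HG, MIR4422HG, MIR4432HG, MIR4500HG, MIR4527HG, MIR4733HG, MIR497HG, MIR503HG, MIR548A1HG, MIR5689HG, MIR583HG, MIR663AHG, MIR670HG, MIR7-3HG, MIR7515HG, MIR9-1HG, MIR99AHG and MIRLET7A1HG. Among them are MIR155HG, the host of the inflammation and B-cell microRNA miR-155, and MIR122HG, the host of the liver microRNA miR-122, which was listed in neither HepG2 library. MIR155HG was at 0 peaks in all 14 libraries, and MIR100HG and MIR99AHG, long hosts of miR-100, miR-99a, miR-125 and let-7 hairpins, were too.

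The strength of a host gene is given below as the percentile of its strongest peak by -log10 q among all peaks of that library, 100 being the strongest and 0 standing for no peak. Ranking within a list removes differences in scale between libraries but not those in depth. Peaks were found in all 14 libraries in 4 host genes, MIR4435-2HG, MIRLET7IHG, MIR4453HG and MIR3936HG. That is 4.82% of the host genes, beside 10.7% of SNHG, 2.92% of lncRNA genes and 9.38% of all genes.

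**Figure D2:**
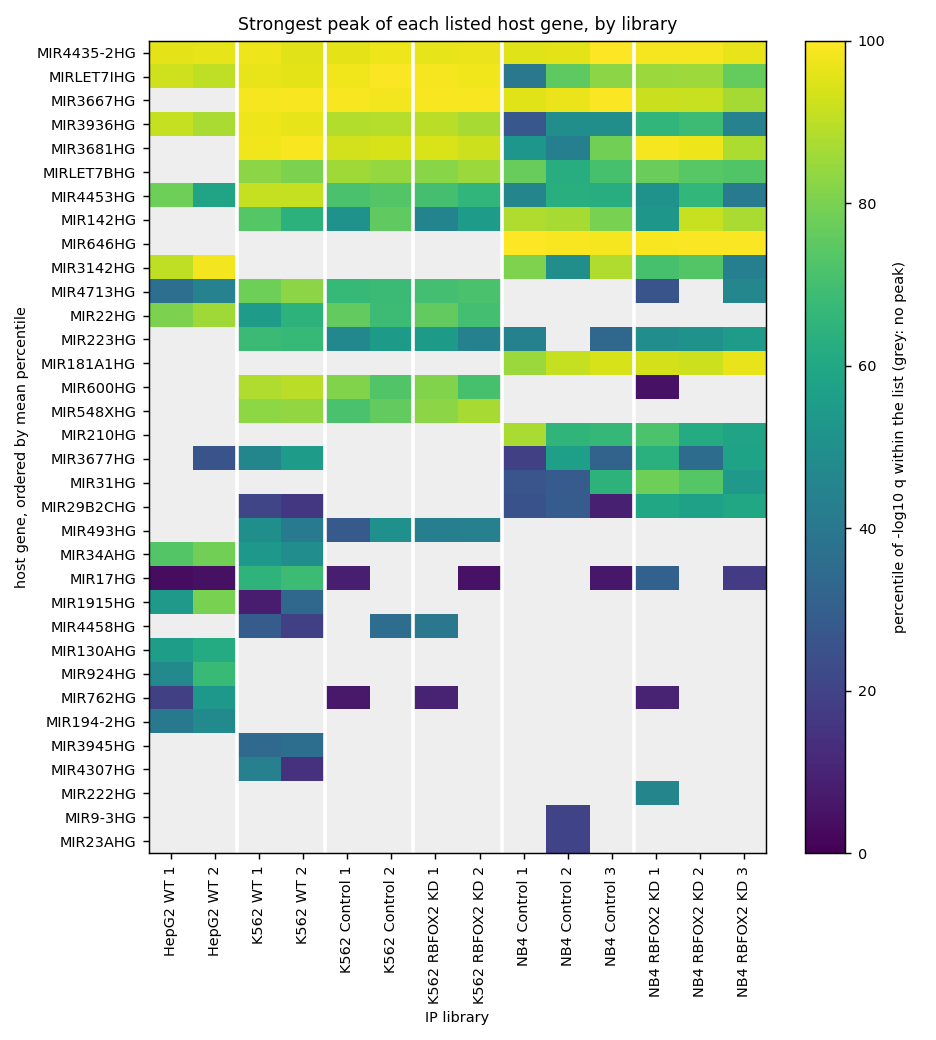
Percentile of the strongest peak by -log10 q within the list (colour, grey where no peak was listed) for the 34 host genes with a peak (rows, ordered by mean percentile) in the 14 IP libraries (columns, white lines between groups). The top rows are filled in nearly every library, while MIR646HG and MIR181A1HG are filled in NB4 alone, MIR548XHG and MIR493HG in K562 alone, and MIR130AHG, MIR924HG and MIR194-2HG in HepG2 alone.

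MIR4435-2HG (chr2:111006015-111523376, minus strand), also known as a long non-coding RNA of short-lived myeloid cells, had the highest mean percentile. Its values were 95.9 and 96.4 in HepG2 WT, 97.3 and 95.4 in K562 WT, 96.03 and 97.6 in K562 Control, 96.4 and 97.02 in K562 RBFOX2 KD, 95.1, 95.9 and 99.6 in NB4 Control, and 98.6, 98.7 and 96.8 in NB4 RBFOX2 KD. All 14 lay within 5 points of each other. It held 42 merged peak sites, of which 6 were listed in all 14 libraries, 5 of these in intron 3 of 4 of the canonical transcript and 1 in exon 2 of 5. At 22 of the 42 sites the central 31 bases occur more than 1 time in hg38, with a median of 2, so at those sites this gene and the copy cannot be told apart.

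MIRLET7IHG (chr12:62602752-62622213, plus strand), the host of let-7i, had percentiles of 92.8 and 90.5 in HepG2 WT, 96.8 and 95.8 in K562 WT, 97.96 and 99.4 in K562 Control, 98.5 and 97.7 in K562 RBFOX2 KD, 39.9, 75.1 and 82.7 in NB4 Control, and 85.1, 85.3 and 76.4 in NB4 RBFOX2 KD. All K562 and HepG2 libraries were above all NB4 libraries. The main site lay in exon 2 of 2 at chr12:62613720-62614314, 10297 bases from the hairpin, with summits between 62614065 and 62614156 in the 14 libraries. The fold over background there was 39.5 and 37.5 in K562 Control and 5.10, 10.6 and 11.7 in NB4 Control.

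MIR4453HG (chr4:152536264-152539263, plus strand) is a short gene whose peak covered all or part of its hairpin. Percentiles were 78.1 and 58.2 in HepG2 WT, 91.02 and 91.4 in K562 WT, 71.4 and 73.3 in K562 Control, 70.5 and 65.8 in K562 RBFOX2 KD, 45.6, 62.8 and 62.3 in NB4 Control, and 51.3, 66.04 and 41.1 in NB4 RBFOX2 KD, with both K562 WT libraries above all others. HepG2 WT 2 and K562 RBFOX2 KD 2 lay inside the NB4 range. The hairpin of miR-4453 lay under the peak in 14 of 14 libraries, and the summits fell from 152536483 to 152536572, around the 3′ end of the hairpin at 152536516. The printed window begins inside the hairpin.

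MIR3936HG (chr5:132311285-132370170, minus strand) had percentiles of 91.3 and 87.4 in HepG2 WT, 97.3 and 96.4 in K562 WT, 88.7 and 88.8 in K562 Control, 89.8 and 86.8 in K562 RBFOX2 KD, 26.99, 49.6 and 49.5 in NB4 Control, and 65.9, 68.6 and 44.5 in NB4 RBFOX2 KD. NB4 values were all below those of the other lines. Of its 6 sites 3 held repeated sequence, and the strongest, in intron 5 of 7, was centred on 31 bases that occur 2323 times in hg38. Counting only summits with single-copy sequence, the gene was still listed in 12 libraries but not in NB4 Control 1 and NB4 Control 2, which left 3 host genes in all 14 libraries.

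MIR142HG and MIR223HG were listed in the leukaemia lines and not in HepG2. MIR142HG (chr17:58330879-58332523, minus strand), an unspliced transcript of the haematopoietic miR-142, had percentiles of 73.8 and 64.4 in K562 WT, 51.2 and 75.7 in K562 Control, 45.1 and 55.2 in K562 RBFOX2 KD, 87.98, 87.1 and 80.001 in NB4 Control, and 53.1, 91.5 and 87.1 in NB4 RBFOX2 KD, and 0 in both HepG2 libraries. NB4 values were higher than most K562 values but overlapped them through NB4 RBFOX2 KD 1. Merged over libraries, its main site ran from the gene start almost to the hairpin. MIR223HG (chrX:66015414-66020426, plus strand), the host of the myeloid miR-223, had percentiles of 68.2 and 66.8 in K562 WT, 46.8 and 54.4 in K562 Control, 54.7 and 44.002 in K562 RBFOX2 KD, 43.9, 0 and 33.8 in NB4 Control, and 49.1, 51.2 and 54.8 in NB4 RBFOX2 KD, and again 0 in HepG2. The K562 and NB4 libraries overlapped.

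Peak borders at these hosts lay close to the hairpin, a feature looked for after the positions had been seen. At MIR142HG the nearest peak upstream of the hairpin ended 4 to 77 bases short of it in 12 libraries, with a median of 8 bases and a gap of at most 10 bases in 7 of them, and in no library did a peak cover the hairpin. A peak downstream of the hairpin, starting 178 to 226 bases past it, was listed in K562 WT 1 and in all 3 NB4 RBFOX2 KD libraries. At MIR223HG the peak lay downstream of the hairpin in 11 libraries and overlapped its 3′ edge by 9 to 30 bases. By contrast the gap was 261 to 403 bases at MIR210HG, 38 to 405 bases at MIR34AHG and 133 to 158 bases at miR-194-2 in MIR194-2HG.

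**Figure D3:**
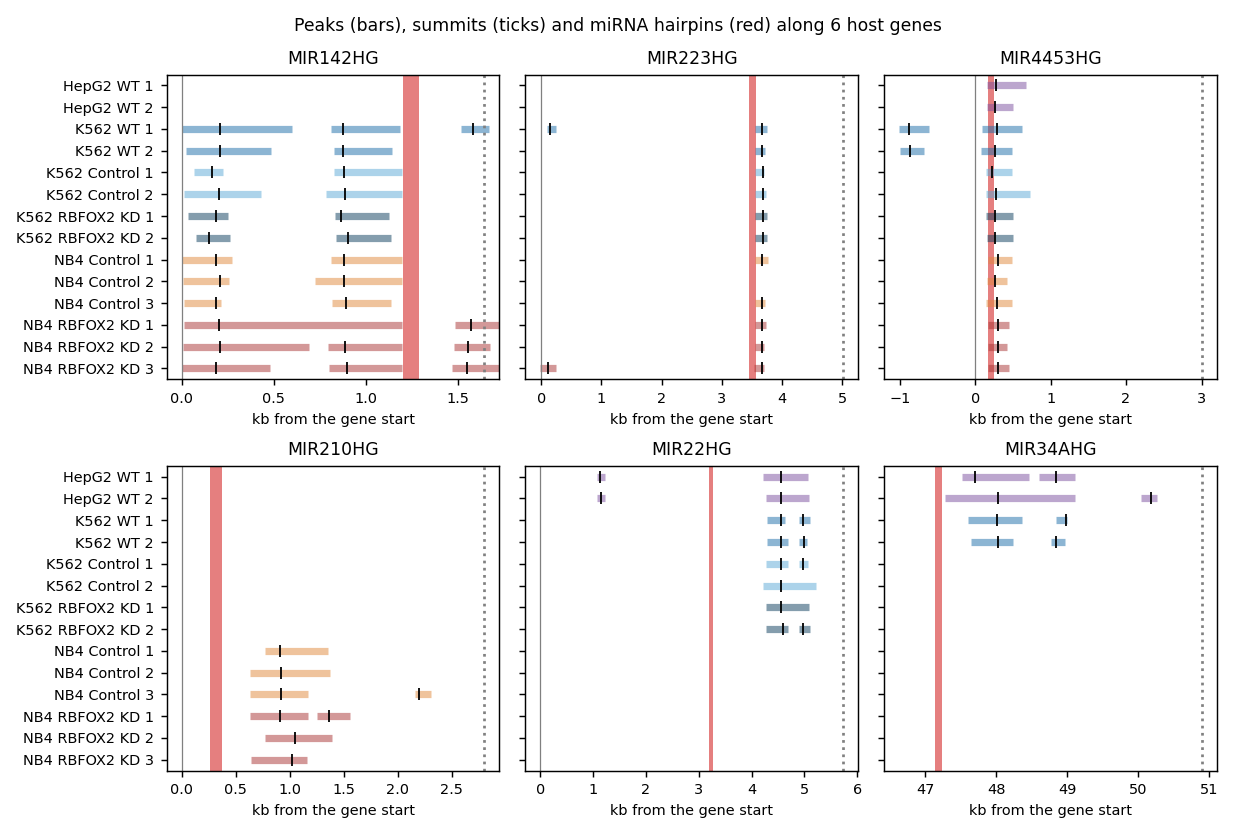
Peaks (bars, coloured by group), summits (black ticks) and microRNA hairpins (red bands) along 6 host genes in each of the 14 IP libraries; the x axis is the distance in kb from the gene start in the direction of transcription, and the dotted line is the gene end (MIR34AHG is shown from its hairpin on). Upstream peaks of MIR142HG stop before the hairpin and the main peaks of MIR223HG start at its 3′ edge, while those of MIR4453HG run across it.

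Of 131 hairpins annotated inside the 83 host genes, 62 lay in the 34 hosts with a peak. A summit came within 1000 bases of 15 of the 62 hairpins in at least 1 library, in 14 hosts, and a peak covered part of 2, miR-4453 and miR-223. Elsewhere peaks were farther from the microRNA. The summits nearest to miR-146a, miR-29c, miR-31 and miR-3681 were 17018, 22135, 47117 and 81903 bases away.

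MIR22HG (chr17:1711447-1717174, minus strand), the host of miR-22, had percentiles of 80.5 and 85.7 in HepG2 WT, 55.02 and 64.5 in K562 WT, 75.9 and 68.5 in K562 Control, and 75.8 and 70.02 in K562 RBFOX2 KD, and 0 in all 6 NB4 libraries, so the NB4 libraries and the others did not overlap. The main site was in exon 4 of 4 at chr17:1711961-1712955, downstream of the hairpin, and the nearest summit was 1277 bases from it. The fold there was 15.7 and 10.7 in K562 Control and 6.29 and 8.34 in HepG2 WT. MIR17HG (chr13:91347686-91397592, plus strand), the host of the oncogenic cluster from miR-17 to miR-92a, had percentiles of 3.22 and 4.65 in HepG2 WT, 64.9 and 68.4 in K562 WT, 8.51 and 0 in K562 Control, 0 and 4.71 in K562 RBFOX2 KD, 0, 0 and 6.63 in NB4 Control, and 31.2, 0 and 17.5 in NB4 RBFOX2 KD. Both K562 WT libraries were far above the other 12, of which 5 were at 0. All its peaks lay in the first exon or just behind it, 2195 bases or more from the first hairpin of the cluster.

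Between K562 and NB4, all 6 libraries of each line were compared gene by gene in an exact two-sided permutation test of the percentile over 924 arrangements, adjusted by Benjamini-Hochberg over all 16227 genes with a peak in at least 2 libraries. Of 28 host genes tested, 10 were higher in K562 and 6 in NB4, 35.7% and 21.4%, beside 31.3% and 17.9% of all genes, so the host genes were called about as often as genes at large. By presence in place of the percentile 3 were higher in K562 and 5 in NB4, and with Control libraries only, where the exact test cannot go below 0.1, 0 were called. The shares of all genes under these settings were not computed. The median difference was 11.3 points over the host genes and 4.29 over all genes. The lines also differ in depth and the labels give no shared batch, and line and batch cannot be told apart.

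The 10 hosts higher in K562 were MIR4453HG, MIR3936HG, MIR600HG, MIRLET7IHG, MIR493HG, MIR4713HG, MIR22HG, MIR548XHG, MIRLET7BHG and MIR3667HG. MIR548XHG was at 83.4 ± 0.598 (SD, n = 2) in K562 WT, 73.8 ± 3.39 (SD, n = 2) in K562 Control and 84.6 ± 3.002 (SD, n = 2) in K562 RBFOX2 KD and at 0 in every NB4 and HepG2 library. MIR600HG was at 88.9 ± 0.874 (SD, n = 2), 77.1 ± 5.90 (SD, n = 2) and 75.99 ± 6.92 (SD, n = 2) in the same order, and 1 of 6 NB4 libraries listed it. Its window overlaps another gene on the same strand, STRBP, so those peaks may belong to either. MIR493HG, a host in the imprinted cluster on chromosome 14, was at 45.1 ± 6.34 (SD, n = 2), 39.03 ± 15.6 (SD, n = 2) and 43.1 ± 0.36 (SD, n = 2) and at 0 elsewhere. These 3 had differences of 80.6, 79.8 and 42.4 points, each with adjusted p = 0.00649 and p = 0.0022 before adjustment, the smallest that the permutation test can give.

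MIR4713HG had percentiles of 36.5 and 44.3 in HepG2 WT, 77.8 and 82.6 in K562 WT, 66.9 and 68.3 in K562 Control, 70.2 and 71.3 in K562 RBFOX2 KD, 0, 0 and 0 in NB4 Control, and 25.98, 0 and 46.2 in NB4 RBFOX2 KD, a difference of 60.8 points with adjusted p = 0.00649 by the same permutation test. Of its 12 sites 6 were centred on sequence that occurs 10 times or more in hg38, the strongest of them 9556 times. MIRLET7BHG (chr22:46053869-46113928, plus strand), host of let-7a-3 and let-7b, had percentiles of 82.4 and 80.2 in K562 WT, 85.6 and 84.1 in K562 Control, 82.2 and 84.9 in K562 RBFOX2 KD, 76.8, 62.3 and 70.8 in NB4 Control, and 77.1, 74.1 and 72.7 in NB4 RBFOX2 KD and 0 in HepG2. All K562 values were above all NB4 values, by 10.9 points on average. Its strongest site was in intron 1 of 4 at chr22:46086929-46088243, and the summit nearest to let-7a-3 was 13269 bases away. By peaks per 10000 the sign turned for MIRLET7BHG, MIRLET7IHG and MIR3936HG, with K562 minus NB4 at -0.0671, -0.0409 and -0.0920.

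MIR3667HG (chr22:49414524-49657542, minus strand) had percentiles of 98.6 and 99.02 in K562 WT, 99.2 and 98.3 in K562 Control, 99.01 and 98.9 in K562 RBFOX2 KD, 95.2, 96.999 and 99.6 in NB4 Control, and 91.8, 91.6 and 86.6 in NB4 RBFOX2 KD and 0 in HepG2. The lines overlapped, and the difference of 5.21 points (adjusted p = 0.0326, exact permutation test) was lost without any 1 of the 6 K562 libraries. Ranked by fold in place of -log10 q the difference was -4.48 points. The strongest site of the gene, listed in 12 libraries, was centred on sequence that occurs 9878 times in hg38. At that site this gene and the copies cannot be told apart. The number of peaks separated the lines clearly: 62 and 62 in K562 WT, 55 and 55 in K562 Control, 47 and 49 in K562 RBFOX2 KD, 21, 20 and 23 in NB4 Control and 21, 15 and 20 in NB4 RBFOX2 KD. Of sites listed in at least 2 libraries of a line, 16 were shared, 28.6% of the 56 in K562 and 84.2% of the 19 in NB4.

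The 6 hosts higher in NB4 were MIR181A1HG, MIR29B2CHG, MIR3142HG, MIR31HG, MIR210HG and MIR646HG. MIR646HG (chr20:60087661-60653784, plus strand) had percentiles of 99.8, 99.04 and 98.8 in NB4 Control and 99.1, 99.3 and 99.5 in NB4 RBFOX2 KD and was listed in no K562 or HepG2 library, the largest difference of any host at -99.2 points (K562 minus NB4, adjusted p = 0.00649, exact permutation test). It held 89 merged sites, more than any other host, 85 of them in single-copy sequence. MIR181A1HG, the host of miR-181a-1 and miR-181b-1, was at 90.1 ± 4.69 (SD, n = 3) in NB4 Control and 94.2 ± 2.27 (SD, n = 3) in NB4 RBFOX2 KD and at 0 in the 8 other libraries. Its strongest site lay in exon 1 of 3, 121 bases from the gene start. MIR210HG was at 73.003 ± 12.2 (SD, n = 3) and 63.8 ± 6.96 (SD, n = 3) in the same groups, and MIR31HG, host of miR-31, at 39.98 ± 21.3 (SD, n = 3) and 68.5 ± 12.8 (SD, n = 3), both at 0 elsewhere.

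MIR3142HG (chr5:160438594-160487426, plus strand), which also hosts miR-146a, had percentiles of 90.6 and 98.4 in HepG2 WT, 80.7, 49.3 and 87.96 in NB4 Control, and 70.8, 73.4 and 43.1 in NB4 RBFOX2 KD, and 0 in all 6 K562 libraries. Its single site, chr5:160467879-160468455, lay at the start of another transcript of the gene, in the intron of the canonical one. MIR29B2CHG was at 18.5 ± 3.30 (SD, n = 2) in K562 WT, 0 in the other K562 groups, 21.01 ± 10.6 (SD, n = 3) in NB4 Control and 58.9 ± 1.53 (SD, n = 3) in NB4 RBFOX2 KD, a difference between the lines of -33.8 points (adjusted p = 0.0217, exact permutation test). MIR142HG stood just outside the threshold, -20.3 points with adjusted p = 0.0523 by that exact permutation test, and without NB4 RBFOX2 KD 1 it was -25.9 points with adjusted p = 0.0176. With lists of equal length the calls of MIR29B2CHG and MIR493HG were lost, both at adjusted p = 0.105 in the exact permutation test.

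Presence alone was compared between pairs of groups, a host being counted when at least 2 libraries of one group and none of the other listed it. These counts have no test, and comparisons that use NB4 Control, K562 Control, K562 WT or HepG2 WT share those libraries with one another. Between K562 WT and HepG2 WT, 12 of 27 host genes were listed in K562 WT alone and 5 in HepG2 WT alone, 44.4% and 18.5%, beside 30.1% and 9.24% of 14356 genes. The 5 were MIR3142HG, MIR130AHG, MIR194-2HG, MIR762HG and MIR924HG. MIR194-2HG, which hosts the hepatic and intestinal miR-192 and miR-194, was at 40.3 and 47.5 in HepG2 WT and at 0 in the other 12 libraries, with summits 389 bases from the miR-194-2 hairpin and 582 bases from miR-192. MIR130AHG was at 55.8 and 61.6 and MIR924HG at 47.03 and 67.3, also at 0 elsewhere. HepG2 lists were the shortest and were called at the greatest depth, and with lists of equal length the 12 became 7 and the 5 became 6. The shares of all genes with lists of equal length were not computed.

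Between NB4 Control and HepG2 WT, 10 of 25 host genes were listed in NB4 Control alone and 8 in HepG2 WT alone, 40% and 32%, beside 23.3% and 13.4% of 12978 genes. The 8 included MIR34AHG, host of the p53-induced miR-34a, which was at 73.4 and 78.8 in HepG2 WT, 53.4 and 49.01 in K562 WT and 0 in the other 10 libraries. Between NB4 Control and K562 Control, 7 of 22 were listed in NB4 Control alone and 5 in K562 Control alone, 31.8% and 22.7%, beside 14.5% and 17.6% of 13926 genes. MIR3677HG, the 1 of the 7 that the test between the lines did not call, was listed in K562 WT at 46.1 and 55.1.

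Between the K562 groups without RBFOX2 shRNA, 6 of 22 host genes were listed in K562 WT alone and 0 in K562 Control alone, 27.3% and 0%, beside 9.93% and 2.83% of 13670 genes. The 6 were MIR34AHG, MIR29B2CHG, MIR3945HG, MIR1915HG, MIR4307HG and MIR3677HG, and MIR17HG was at 64.9 and 68.4 in K562 WT and at 8.51 and 0 in K562 Control. K562 WT was called at 25.2 M effective reads and K562 Control at 17.2 M. With depth matched the count stayed at 6, and with lists of equal length it was 2. Shares of all genes were not recomputed for these settings. Depth matching rescaled each summit to the lowest depth without calling peaks anew, so it could only remove peaks. The part of culture, shRNA and library preparation in this difference was not tested.

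RBFOX2 knockdown was compared with Control first by the percentile, permuting labels within each line (exact test, 120 arrangements, two-sided). No host gene of 24 was called, beside 0% of 15331 genes. A call would have needed 5111 genes at the smallest p the test can give, 0.0167, so the adjusted count says nothing about stability. Without adjustment, 0 of 24 host genes had p under 0.05, beside 2.61% of all genes higher and 1.27% lower in KD. In single lines, all-or-none counts gave 0 of 17 host genes in K562 RBFOX2 KD alone and 0 in K562 Control alone, beside 0.863% and 1.15% of 12393 genes, and 1 of 18 in NB4 RBFOX2 KD alone and 0 in NB4 Control alone, beside 3.44% and 2.48% of 12141 genes. The 1 was MIR4713HG, listed in 2 of 3 NB4 RBFOX2 KD libraries, and without NB4 RBFOX2 KD 1 or NB4 RBFOX2 KD 3 or with single-copy summits the count was 0, while without NB4 Control 3 it was 2.

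In NB4 the percentiles of 3 of 18 host genes lay higher in all KD libraries than in all Control libraries, and those of 1 lay lower, beside 16.2% and 7.4% of all genes, which is near the share of the hosts. MIR29B2CHG was at 25.2, 28.9 and 8.95 in NB4 Control and 59.9, 57.2 and 59.7 in NB4 RBFOX2 KD. MIR3681HG (chr2:11833926-12702913, plus strand) was at 52.4, 43.05 and 78.6 and then 98.7, 97.6 and 87.6, with 97.8 and 98.9 in K562 WT, 93.2 and 93.9 in K562 Control, 94.4 and 92.4 in K562 RBFOX2 KD and 0 in HepG2. MIR223HG was at 43.9, 0 and 33.8 and then 49.1, 51.2 and 54.8. MIR3667HG, whose strongest site held repeated sequence, was lower in KD, 91.8, 91.6 and 86.6 against 95.2, 96.999 and 99.6. The exact permutation p of each of these 4 was 0.1, and with 3 libraries a side it cannot be lower. In K562, where 2 against 2 allows no p below 0.333, 2 of 17 host genes lay higher in KD, MIR4713HG and MIR548XHG, and 1 lower, MIR4453HG, beside 12% and 17.2% of all genes.

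The number of peaks in a host gene, per 10000 peaks of the list, was also compared between NB4 RBFOX2 KD and NB4 Control, a measure added after the data had been seen. All KD libraries were above all Control libraries for 5 of 18 host genes, 27.8%, beside 7.26% of all genes, and all below for 4, 22.2%, beside 27.3%. The 4 were MIR4453HG, MIR3142HG, MIRLET7IHG and MIR3667HG. MIR4453HG and MIR3142HG held 1 peak in each of the 6 libraries, and a constant count must come out lower on this measure because the KD lists were longer. The 5 that lay above were MIR181A1HG, MIR3681HG, MIR4435-2HG, MIR31HG and MIR646HG, long genes of 159.6 to 869 kb. Constant counts fall in the same way among all genes, so 7.26% is not a like share for long genes. The share among genes of like length was not computed. MIR3681HG held 3, 2 and 3 peaks in NB4 Control and 15, 14 and 11 in NB4 RBFOX2 KD, or 0.845 ± 0.199 (SD, n = 3) and 3.49 ± 0.433 (SD, n = 3) per 10000. In K562 it held 16 and 16 in Control and 18 and 16 in KD. The NB4 groups were far apart and the K562 groups nearly level, and the difference between the lines, K562 minus NB4, was -2.32 per 10000 with unadjusted p = 0.1 and adjusted p = 0.493 in the exact permutation test of the interaction.

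MIR646HG held 53, 53 and 58 peaks in NB4 Control and 79, 73 and 75 in NB4 RBFOX2 KD, or 17.3 ± 0.669 (SD, n = 3) and 19.9 ± 0.52 (SD, n = 3) per 10000. MIR181A1HG held 2, 3 and 3 and then 7, 7 and 5, MIR31HG 2, 1 and 2 and then 5, 5 and 4, and MIR4435-2HG 17, 20 and 21 and then 26, 27 and 24. The NB4 KD lists were longer, 38100 ± 1549 against 31700 ± 1961 peaks (SD, n = 3 each), and deeper. With depth matched, the counts of MIR3681HG, MIR181A1HG, MIR31HG and MIR4435-2HG did not move and those of MIR646HG were 53, 53 and 58 against 78, 73 and 74. Merged regions of the NB4 groups numbered 52807 before matching and 52524 after it. Peaks were not called anew, so the part of depth in these counts was not tested. With lists of equal length MIR3681HG held 2, 1 and 2 against 7, 8 and 5, MIR646HG 40, 34 and 44 against 53, 49 and 49, MIR181A1HG 2, 1 and 1 against 4, 4 and 3, and MIR31HG 1, 0 and 1 against 3, 2 and 3, still without overlap. MIR4435-2HG held 16, 14 and 13 against 16, 17 and 17, so its groups then overlapped. Leaving out summits shared with another gene on the strand, the difference of MIR4435-2HG was 0.260 per 10000.

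Over both lines, with labels permuted within each line, 1 of 24 host genes had an unadjusted p under 0.05 with more peaks per 10000 in KD and 2 with fewer, beside 1.3% and 3.58% of all genes. These were MIR3681HG (p = 0.0167, adjusted p = 0.456, exact permutation test) in the first direction and MIR3667HG (p = 0.0167, adjusted p = 0.456) and MIRLET7IHG (p = 0.0333, adjusted p = 0.456) in the second, and none passed the adjustment. MIRLET7IHG held 2, 3 and 2 peaks in NB4 Control and 2 in each NB4 RBFOX2 KD library, 2 and 3 in K562 Control and 2 in each K562 RBFOX2 KD library, and with lists of equal length 2 in all 10, so a nearly constant count was divided by the length of each list. The peak counts of MIR3667HG overlapped between the NB4 groups. MIR3667HG was at 14.6 ± 0.446 per 10000 in K562 Control and 12.96 ± 1.12 in K562 RBFOX2 KD (SD, n = 2 each), and at 6.74 ± 0.435 in NB4 Control and 4.90 ± 0.801 in NB4 RBFOX2 KD (n = 3 each). In K562 alone 2 of 17 host genes lay higher in KD by this measure, MIR3681HG and MIR548XHG, and 1 lower, MIR3667HG, beside 8.67% and 13.5% of all genes.

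**Figure D4:**
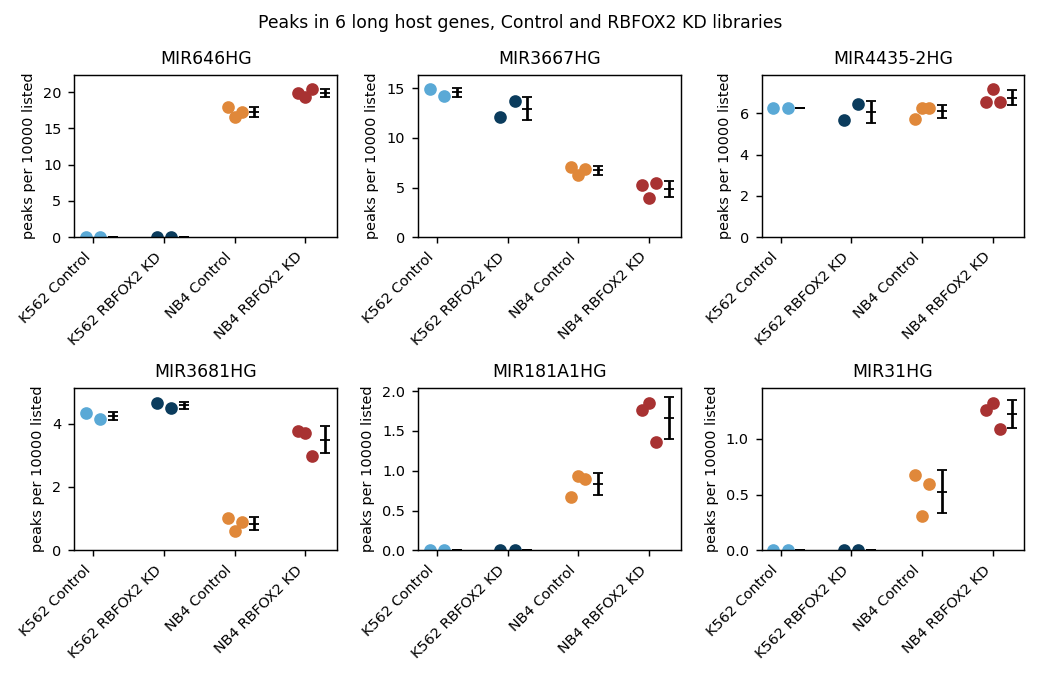
Peaks per 10000 listed peaks in 6 long host genes in the Control and RBFOX2 KD libraries of K562 and NB4 (points), with group mean and SD (black); each panel has its own y axis from 0. In NB4 the KD libraries lie above the Control libraries for MIR646HG, MIR4435-2HG, MIR3681HG, MIR181A1HG and MIR31HG and below them for MIR3667HG, and in K562 MIR646HG, MIR181A1HG and MIR31HG are at 0.

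Single regions were compared next. Peaks of the 2 groups of a line were merged by strand, and a region was counted when every library of one group and none of the other covered it. Of 225 regions in host genes in NB4, 17 were found in KD alone and 1 in Control alone, 7.56% and 0.444%, beside 3.67% and 0.612% of 52807 regions. The 17 were 8 in MIR3681HG, 4 in MIR646HG, 2 in MIRLET7BHG and 1 each in MIR142HG, MIR31HG and MIR4435-2HG, so they are not 17 independent cases. With depth matched the counts were 16 and 1 of 223, 7.17% and 0.448%, beside 3.59% and 0.632% of 52524 regions. With lists of equal length they were 9 and 3, and without NB4 Control 3 the first was 28. For these settings the shares of all regions were not computed. In K562, 0 of 158 regions in host genes were found in KD alone and 1, in MIRLET7BHG, in Control alone, beside 1.76% and 1.74% of 47629 regions. With the libraries of all groups merged, MIR3681HG had 6 sites in every NB4 RBFOX2 KD library and no NB4 Control library, and all 6 were listed in at least 2 K562 libraries. Whether transcription or methylation of MIR3681HG differed was not tested, since peak lists hold no input level.

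The 1848 host peaks merged to 346 sites, 15 at transcript starts, 60 in exons and 271 in introns, and 10 of them were listed in all 14 libraries and 65 in only 1. MIR646HG, MIR3667HG and MIR4435-2HG held 42.6% to 77.9% of the host summits of a library. DRACH matches within 75 bases were found at 91.5% to 100% of host summits by library, beside 94.6% to 98.4% of all summits. GGACU, the strongest form and itself a DRACH match, was found at 17.5% to 34.1% beside 22.04% to 29.1%, AGAUG, another sequence searched, at 24.4% to 36.4% beside 20.8% to 25.1%, and UGCAUG, the RBFOX2 motif, at 2.37% to 6.38% beside 3.41% to 3.97%. All were searched on the strand of the peak. With each merged site counted 1 time, AGAUG was found at 25.4% of the 346 sites. Outside MIR646HG and MIR3667HG it was found at 22.8% of 184 sites.

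The 31 bases at the summit occurred more than 1 time in hg38 at 51 of 346 sites, 14.7%. By library the share was 14.97% to 34.1% of host summits, beside 14.05% to 25.003% of all summits. The repeated sites were concentrated in MIR4435-2HG with 22 of 42, MIR4713HG with 6 of 12 and MIR3936HG with 3 of 6, whereas all sites of MIRLET7BHG, MIR142HG, MIR223HG, MIR22HG and MIR17HG were single-copy. How reads that align to several places were treated is not given in the sources used here, and no repeat annotation was used.

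**Figure D5:**
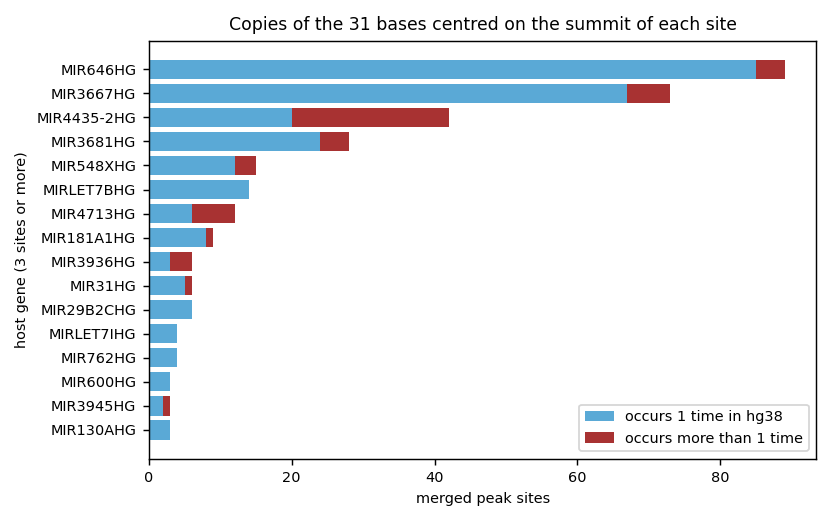
Merged peak sites of the 16 host genes with 3 sites or more, split by whether the 31 bases centred on the summit occur 1 time (blue) or more than 1 time (red) in hg38, both strands counted. MIR646HG and MIR3667HG hold the most sites, nearly all single-copy, though the strongest site of MIR3667HG is not. MIR4435-2HG has 22 of 42 in red.

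Genes that make and use microRNAs were compared in the same way. Of 27, 24 held a peak in at least 1 library, and of 23 tested between the lines 3 were higher in K562, the exporter XPO5, the let-7 inhibitor LIN28B and the Argonaute partner TNRC6C, and 5 in NB4, DIS3L2, HNRNPA2B1, SRRT, TARBP2 and KHSRP. That is 13.04% and 21.7%, beside the 31.3% and 17.9% of all genes. DROSHA, DGCR8 and DICER1 held peaks in all 14 libraries and were not called, with differences of -2.02, 1.12 and -1.48 points. LIN28B, which blocks let-7 maturation, differed by 51.8 points (adjusted p = 0.00649, exact permutation test). None of the 23 had an unadjusted p under 0.05 between KD and Control.

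On the strand opposite to the host, summits were found in the windows of 27 host genes, 9 of which held none on their own strand. MIR23AHG, the host of miR-23a, miR-24-2 and miR-27a, had an own-strand peak in 1 library and opposite-strand peaks in 14. MIR29B2CHG had them in 8 and 14. MIR302CHG, host of a stem-cell cluster, had none on its strand and opposite-strand peaks in 11 libraries. Those peaks are counted to no host gene.

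The remaining hosts with a peak were listed in few libraries: MIR762HG in 5, MIR1915HG in 4, MIR4458HG in 4, MIR3945HG in 2, MIR4307HG in 2, MIR222HG in 1, MIR9-3HG in 1 and MIR23AHG in 1. MIR222HG, host of miR-221 and miR-222, was listed in NB4 RBFOX2 KD 1 alone, at 45.6. The window of MIR4307HG overlaps another lncRNA gene on the same strand.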

How the data were processed

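The immunoprecipitated libraries of chromatin-associated RNA were analysed as 14 peak lists, 1 per library. Per the study's methods and the submitters' processing notes, the authors trimmed reads with Trimmomatic 0.39, aligned them with HISAT 2.1.0 to hg38 with GENCODE release 29, and called peaks by strand with MACS2 (no model, extension 150 bases, genome size 1.3e+08, q under 0.01). Whether the input served as the control of that step, and how multi-mapped reads were treated, is not given in the sources used here. The deposited columns hold a score, the fold at the summit over the background of the peak caller (a ratio), the -log10 p and -log10 q, and the offset of the summit. No read counts were used, so no count model was fitted, and the 14 input libraries were not analysed here.

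Summits on chromosomes 1 to 22, X and Y were assigned by strand to GENCODE release 44 genes, from 1000 bases upstream of the start to the end. A gene took the percentile of its strongest peak by -log10 q within the list, and 0 without a peak. Comparisons used exact two-sided permutation tests over libraries with Benjamini-Hochberg adjustment over all genes with a peak in at least 2 of the libraries compared, called at adjusted p under 0.05, or all-or-none counts with no test. Labels were permuted within each line for the knockdown. Effective reads were solved from the fold and the -log10 p at each summit. The steps were tested on simulated data. Libraries with the same replicate number did not deviate together (correlations of -0.204 to -0.0685), so the numbers were not used as pairs.

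Host genes named with values in every library were MIR17HG, MIR155HG and MIR22HG, the 10 with the highest mean percentile and those called between KD and Control. The members and lists were chosen with earlier results of these data known. The alternatives tried were a stricter -log10 q of 5, equal list lengths, matched depth, no upstream extension, any overlap, unique assignment, every library, no filter, the fold, presence, Control libraries only, a replicate block and leaving out each library. Peaks per 10000 and single-copy summits were chosen after seeing the data.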

Additional observations from a re-analysis of the deposited data

How the results depend on the processing

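Of the results that answer a comparison, 302 recomputed values stayed near the main value and 18 did not. A count stayed when it was equal or within 1.5 times. A difference in the number of listed hosts stayed when it moved by at most the pooled SD, whatever its sign. Counts that remained at 0 are among the 302, also where the test could not have called any gene. Of the other recomputed values, chiefly differences of single hosts, 717 stayed, 34 became weaker, 13 stronger, 5 moved and 4 turned in sign. A difference that lost its call counted as weaker, and one that gained a call as stronger. With lists of equal length, hosts in NB4 RBFOX2 KD alone numbered 0, in K562 WT but not HepG2 WT 7, and in K562 WT but not K562 Control 2, and host regions in NB4 RBFOX2 KD alone 9 and in NB4 Control alone 3. Fewer peaks enter there by construction, and shares over all genes or regions were not recomputed there. Hosts in NB4 RBFOX2 KD alone also numbered 0 with single-copy summits and when every library had to list the gene. By presence, 3 hosts were higher in K562, and with Control libraries only 0 were called in each direction, where the smallest p is 0.1. Leaving out 1 library gave 0 to 1 hosts in K562 Control but not K562 WT, 0 to 2 in NB4 RBFOX2 KD alone, 19 to 28 host regions in NB4 RBFOX2 KD alone and 1 to 2 in NB4 Control alone. The regions rise because fewer libraries have to agree. The sign of K562 minus NB4 turned for MIR3667HG by fold (-4.48 points) and, by peaks per 10000, for MIR3936HG (-0.0920), MIRLET7IHG (-0.0409) and MIRLET7BHG (-0.0671). The cause was not tested. The replicate block called 0 host genes and 0 genes, its smallest p being 0.0625, and changed no other call. Lists hold peaks at q under 0.01 only, so weaker methylation was not detectable at this depth.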
